A study of Rattus norvegicus with 82 samples.

Results

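The genes of the calcineurin pathway described here are Ppp3ca and Ppp3cb (catalytic A subunits of calcineurin), Ppp3r1 (its regulatory B subunit), Rcan1 and Rcan2 (regulators of calcineurin) and Nfatc1, Nfatc2, Nfatc3 and Nfatc4 (transcription factors that calcineurin acts on). They were taken from the deposited table by symbol, and all 9 were present among its 17337 genes. Each of the 9 passed the filter on low counts, so that 9 of the 11954 genes tested were members. Cardiomyocytes, the contractile muscle cells of the heart, were isolated from both the RV (right ventricle) and the LV (left ventricle) in 41 rats, the F1 offspring of Wistar Kyoto mothers and Lewis fathers, and gave 82 libraries of total RNA depleted of ribosomal RNA. A clip around the pulmonary artery (pulmonary artery banding, PAB) or the aorta (aortic banding, AOB) loaded the RV or the LV as the rats grew, and sham-operated rats were controls. The hypertrophy stage (H) was sampled 7 weeks after surgery at a labelled age of 11 weeks in PAB-H, AOB-H and Sham-H. The failure stage (F) was sampled at 22 weeks and an age of 28 weeks in PAB-F, and at 26 weeks and an age of 31 weeks in AOB-F and Sham-F, so that PAB-F rats were younger than their sham group. Each condition gave RV and LV libraries of the same rats: 7 rats in Sham-H, 6 in PAB-H, 6 in AOB-H, 9 in Sham-F, 6 in PAB-F and 7 in AOB-F, with both sexes in every group.

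Calcineurin is a phosphatase that is switched on by calcium and calmodulin. It removes phosphates from the cytoplasmic NFAT proteins, which then enter the nucleus and act on transcription together with partners such as GATA and MEF2 factors, until kinases rephosphorylate them. The RCAN proteins bind calcineurin and modulate its activity, and 1 promoter of Rcan1 is itself a known NFAT target, so that its transcript is widely used as a readout of calcineurin signalling. In cardiomyocytes the pathway is known for its part in hypertrophic growth under load. Calcineurin activity lies in the protein and its calcium supply, and RNA levels do not measure it.

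Total counts ran from 6675287 to 19665439 per library, with a median of 13074486. The 9 marker genes of ventricular cardiomyocytes took 5.54% to 12.4% of the counts of a library. Marker lists of other cell types were low but above 0: the 10 fibroblast genes took 0.0222% to 0.347%, the 8 endothelial genes 0.0654% to 0.542%, 7 mural cell genes 0.0717% to 0.175%, 8 macrophage genes 0.00151% to 0.0214%, and the lymphocyte genes at most 0.000824%. The first principal component of log2 CPM over the genes tested held 46.96% of the variance. On it the LV libraries of the H stage had a median of 16.1 and those of the F stage a median of -66.7. LV Sham-H replicates 4 and 5 and LV PAB-H replicate 2 lay nearer to the LV libraries of the failure stage than to those of their own, at -75.5, -36.8 and -66.3, and LV PAB-F replicate 5 and LV AOB-F replicate 5 lay nearer to the hypertrophy stage, at -2.75 and -25.1. LV AOB-H replicate 6, RV AOB-H replicate 6 and RV PAB-F replicate 1 were separated from the rest of their groups on the first or second component. Their total counts of 6675287, 9257139 and 9021262 lay below those of every other library. The part of depth in their position was not tested. These 8 libraries were kept, and results that rest on them are also given without them, an alternative chosen after seeing the data.

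Per gene length, the RCAN genes were the most abundant members and Nfatc4 the least. Mean FPKM over the 82 libraries was 281 ± 92.2 (SD) for Rcan1, 205 ± 65.1 for Rcan2, 49.8 ± 13.6 for Ppp3cb, 47.7 ± 13.3 for Ppp3r1, 33.2 ± 5.11 for Ppp3ca, 12.6 ± 2.502 for Nfatc3, 12.3 ± 3.42 for Nfatc2, 7.18 ± 2.37 for Nfatc1 and 3.57 ± 2.74 for Nfatc4. Among the 15564 genes with a count, Rcan1 ranked 245th and Rcan2 341st, and Nfatc4 ranked 8475th. In FPKM, Rcan2 exceeded Ppp3cb, Ppp3ca exceeded Nfatc3 and Nfatc1 exceeded Nfatc4 in 82 of 82 libraries. Other neighbours changed places: Rcan1 exceeded Rcan2 in 55 libraries, Ppp3cb exceeded Ppp3r1 in 53, and Nfatc3 exceeded Nfatc2 in 45, so that neither order held over all libraries, while within single groups some did: Rcan1 exceeded Rcan2 in 0 of 7 RV Sham-H and 9 of 9 LV Sham-F libraries, and Ppp3cb exceeded Ppp3r1 in 0 of 6 RV PAB-F and 6 of 6 RV AOB-H libraries. Nfatc4 was counted with 26 to 516 raw reads per library, the fewest of the members, and Rcan1 with 3421 to 18911.

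**Figure D1:**
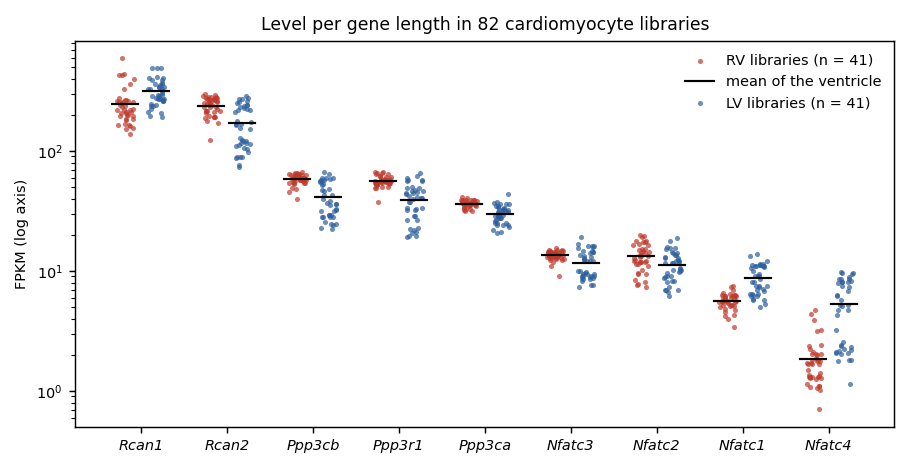
FPKM (log axis) of the 9 genes in every library, with RV libraries in red, LV libraries in blue (41 each) and a bar at the mean of each ventricle. Rcan1 and Rcan2 lie highest, with means of 281 and 205 FPKM over all libraries, and Nfatc4 lies lowest at 3.57, with its LV libraries spread above its RV libraries.

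All values by group below are normalized counts, that is raw counts scaled to the mean effective library size of 13279120, and every adjusted p is from edgeR's quasi-likelihood test with Benjamini-Hochberg adjustment over all genes tested. A gene was called at an adjusted p under 0.05. Fewer cells of a type and less RNA per cell cannot be told apart in such bulk samples.

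Rcan1 was the 1 member called under banding, and only in the loaded ventricle at the failure stage. In the RV, the normalized count of Rcan1 in Sham-F was lowest at 4449, had a median of 5592 and was highest at 7404, whereas PAB-F ranged from 7011 over a median of 11476 to 17327. Of the 6 PAB-F libraries 4 lay above every sham library, and the groups overlapped in the others. The means were 11168 ± 3915 (SD, n = 6) and 5960 ± 1136 (n = 9), a log2 fold change of 0.91 ± 0.18 (SE) or 1.87-fold (95% interval 1.47 to 2.39), with an adjusted p of 0.000262. Rcan1 was the 1 member called of 9 in this comparison, where 11.1% of all genes tested were called. The count of members is thus near the share of all genes and says nothing particular of the 9 genes. Leaving out each library in turn gave log2 fold changes of 0.74 to 1.01 and adjusted p-values of at most 0.00677, and without the libraries that stand apart it was 0.91 with an adjusted p of 0.000625. At the H stage, Rcan1 in RV Sham-H ranged from 4792 over 5745 to 7488 and in PAB-H from 4135 over 7564 to 12640. The PAB-H libraries thus spread to both sides of the sham range, and the log2 fold change of 0.51 ± 0.19 was not called (adjusted p = 0.0988). The difference between the responses of the RV at F and at H was 0.40 ± 0.26 (adjusted p = 0.9997), in a comparison with 0% of genes called (177 at an unadjusted p under 0.05).

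In the LV under aortic banding Rcan1 rose at the failure stage by a smaller step. LV Sham-F ranged from 5580 over 7724 to 10654 and LV AOB-F from 8320 over 11340 to 14103, and 5 of 7 AOB-F libraries lay above every sham library. The means were 11310 ± 2254 (n = 7) and 8045 ± 1456 (n = 9), with a log2 fold change of 0.49 ± 0.17, a fold of 1.41 (1.11 to 1.78) and an adjusted p of 0.0451. This was the 1 member called of 9, beside 12.9% of all genes tested, so that the count is near the share of all genes. The call was lost with an adjusted p of up to 0.111 when any 1 of 9 libraries was left out (LV Sham-F replicates 1, 5, 6, 7 and 9, and LV AOB-F replicates 1, 5, 6 and 7), and the log2 fold change stayed between 0.44 and 0.57 over the 16 such fits. It was also lost with upper quartile factors (adjusted p = 0.0509), with no filter on low counts (0.0859) and in a fit of these 2 groups alone (0.120). At the H stage LV AOB-H ranged from 5554 over 8034 to 10411 and LV Sham-H from 7578 over 8314 to 10552, with a log2 fold change of -0.17 ± 0.19 (adjusted p = 0.639). The difference between the LV responses at F and at H was 0.66 ± 0.26 for Rcan1 and did not pass (adjusted p = 0.320), and 0% of all genes were called in it (1148 at an unadjusted p under 0.05).

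**Figure D2:**
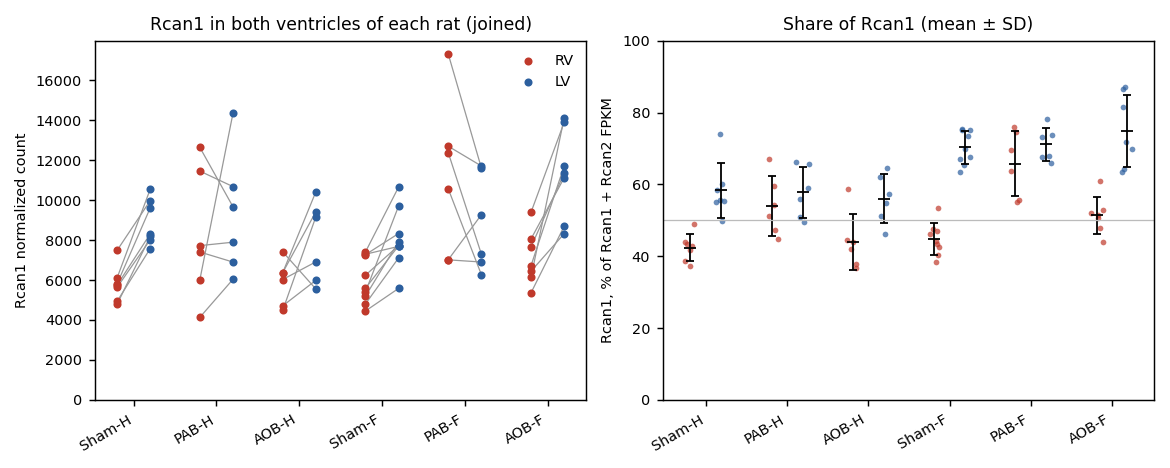
Left, Rcan1 normalized counts in the RV (red) and LV (blue) of each rat, joined by a line, in the 6 conditions. Right, Rcan1 as a percent of the summed FPKM of Rcan1 and Rcan2 per library, with mean ± SD. The lines rise from RV to LV in all 7 Sham-H and all 9 Sham-F rats but fall in 5 of 6 PAB-F rats, and the RV share rises from 44.8% in Sham-F to 65.7% in PAB-F.

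In the ventricle that was not banded directly, Rcan1 did not pass the test. Its log2 fold change was 0.14 ± 0.18 in LV PAB-F (adjusted p = 0.9997), 0.25 ± 0.17 in RV AOB-F (adjusted p = 0.9999), 0.06 ± 0.19 in LV PAB-H (adjusted p = 0.991) and 0.03 ± 0.19 in RV AOB-H (adjusted p = 0.999998). Of all genes tested the share called there was 0% in LV PAB-H (305 genes at an unadjusted p under 0.05), 0% in RV AOB-H (171), 0% in LV PAB-F (454) and 0.0669% in RV AOB-F. The response of Rcan1 to PAB-F in the RV minus that in the LV was 0.77 ± 0.26 on the log2 scale, 1.70-fold (1.204 to 2.411), with an adjusted p of 0.186 beside 0.351% of genes called. With the animal as a block, which pairs the RV and LV of each rat, it was 0.74 with an adjusted p of 0.0289 and Rcan1 was the 1 member called. That fit also called more genes, 349 in place of 42. The matching difference for AOB-F was -0.24 ± 0.24 (adjusted p = 0.743; 0% of genes called and 1161 at an unadjusted p under 0.05). For the H stage the differences of Rcan1 were 0.45 ± 0.27 under PAB (adjusted p = 0.622; 0% called, 1104 unadjusted) and 0.19 ± 0.27 under AOB (adjusted p = 0.835; 0% called, 577 unadjusted).

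Rcan2 was not called under banding. In the RV its normalized count ranged from 9868 over 11201 to 13234 in Sham-F and from 5667 over 8763 to 11035 in PAB-F, with 5 of 6 PAB-F libraries below every sham library. The log2 fold change of -0.40 ± 0.18 did not pass (adjusted p = 0.123). It passed at an adjusted p of 0.0224 in a fit of these 2 groups alone. As a description, the share of Rcan1 in the summed FPKM of both genes was 44.8% ± 4.42 in RV Sham-F (n = 9) and 65.7% ± 9.10 in RV PAB-F (n = 6), with all 6 PAB-F libraries above the highest sham library. It was 42.4% ± 3.74 in RV Sham-H and 53.99% ± 8.24 in RV PAB-H. Rcan1 exceeded Rcan2 in FPKM in 0 of 7 RV Sham-H and 1 of 9 RV Sham-F libraries, in 4 of 6 RV PAB-H and 6 of 6 RV PAB-F libraries, in 5 of 7 RV AOB-F libraries, and in 9 of 9 LV Sham-F libraries. The share was also higher in the RV of AOB-F, which was not banded directly, at 51.4% ± 5.18 (n = 7), with 1 of 7 libraries above every RV Sham-F library. In LV AOB-F the share of Rcan1 was 74.96% ± 10.04 (n = 7) against 70.3% ± 4.67 in LV Sham-F (n = 9), and these groups overlapped.

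The sequence around the annotated start of Rcan1 is shown because Rcan1 was the member called under load, with the promoter of Rcan2, which was not called, beside it. Both are from RefSeq (assembly GRCr8, Rcan1 at chr11:45118187-45118486 and Rcan2 at chr9:24672140-24672439, both on the minus strand), run 5′ to 3′ over 250 bases before and 50 bases after the start, and carry in capitals each match to the NFAT core letters GGAAA on either strand (TTTCC on the other).
Rcan1: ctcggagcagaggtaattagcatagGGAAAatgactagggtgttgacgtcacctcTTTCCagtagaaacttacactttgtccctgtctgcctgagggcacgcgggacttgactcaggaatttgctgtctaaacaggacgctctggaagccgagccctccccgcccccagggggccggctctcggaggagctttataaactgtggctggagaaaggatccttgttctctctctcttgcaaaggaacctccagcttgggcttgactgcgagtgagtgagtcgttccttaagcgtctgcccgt
Rcan2: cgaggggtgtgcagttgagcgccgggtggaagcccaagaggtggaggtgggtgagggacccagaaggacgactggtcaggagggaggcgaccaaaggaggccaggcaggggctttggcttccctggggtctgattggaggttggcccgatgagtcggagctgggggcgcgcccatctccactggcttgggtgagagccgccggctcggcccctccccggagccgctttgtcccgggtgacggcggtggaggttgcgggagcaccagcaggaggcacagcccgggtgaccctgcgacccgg
The Rcan1 sequence held 2 matches, 1 of them on each strand, and the Rcan2 sequence held 0. Promoter sequences of 6 members were matched by NCBI gene number (Ppp3ca, Ppp3cb, Ppp3r1, Rcan1, Rcan2 and Nfatc2), and GGAAA occurred once each in those of Ppp3cb and Ppp3r1 and 0 times in those of Ppp3ca and Nfatc2. Of 33469 rat promoters of the same length 62.7% held GGAAA on either strand, so that a match was common. Rcan1 also held 1 match to the AP-1 letters TGANTCA, found in 7.33% of promoters, and 1 to the cyclic AMP response letters TGACGTCA, found in 1.83%, and the other members' promoters held neither. None of these 4 matches in the Rcan1 sequence overlapped another. The promoter of Rcan1 known to respond to NFAT lies inside the gene, before an alternative first exon, and whether the start shown is that one was not examined. The counts are per gene, so that transcripts from different promoters of Rcan1 cannot be told apart.

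The calcineurin subunits among the members, Ppp3ca, Ppp3cb and Ppp3r1, did not pass the test under banding in any of the 8 comparisons. Ppp3cc, a catalytic subunit gene that is not a member, was called lower in RV PAB-F and is given with the pathway lists below. The catalytic subunit Ppp3cb ranged from 1629 over 1833 to 1909 in RV Sham-F and from 1175 over 1498 to 1726 in RV PAB-F. Of the 6 PAB-F libraries 5 lay below every sham library, and the log2 fold change of -0.28 ± 0.14 had an adjusted p of 0.173 (0.0146 in a fit of these 2 groups alone). The other catalytic subunit among the members, Ppp3ca, had -0.15 ± 0.09 there (adjusted p = 0.269), and the regulatory subunit Ppp3r1 had -0.02 ± 0.16 (adjusted p = 0.951). In the LV under AOB-F, Ppp3r1 ranged from 837 over 1504 to 1602 against 717 over 1005 to 1489 in LV Sham-F, and 4 of 7 libraries lay above the sham range. Its log2 fold change of 0.37 ± 0.15 had an adjusted p of 0.0852, and of 0.0249 without the libraries that stand apart. The 95% intervals of the fold changes of Ppp3ca over the 8 comparisons lay between 0.800 and 1.39, so that larger changes of its RNA are outside them.

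The NFAT genes did not pass the test under banding either. Nfatc4 gave the highest fold change of the members in the RV at the H stage. It ranged from 43.5 over 55.7 to 77.2 in Sham-H and from 46.9 over 81.9 to 213 in PAB-H, with 3 of 6 PAB-H libraries above every sham library. The log2 fold change was 1.01 ± 0.33 (2.01-fold, 1.276 to 3.157) with an adjusted p of 0.0609, and of 0.00138 without the libraries that stand apart, none of which is in these 2 groups. Of the 9 members 0 were called in this comparison (2 at an unadjusted p under 0.05), beside 4.5% of all genes tested. Leaving out each library in turn gave 0.71 to 1.16 for Nfatc4, with a call without RV PAB-H replicate 5 or 6. The fibroblast marker genes took 0.0442% to 0.347% of counts in RV PAB-H and 0.0325% to 0.0569% in RV Sham-H, and the endothelial genes 0.0908% to 0.232% and 0.0770% to 0.111%. Their part in the values of Nfatc4 was not tested.

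In RV PAB-F Nfatc4 had a log2 fold change of 0.71 ± 0.31 (adjusted p = 0.121) and Nfatc3, the NFAT gene with the highest mean FPKM, of -0.25 ± 0.11 (adjusted p = 0.113). Nfatc1 had 0.09 ± 0.14 and Nfatc2 -0.14 ± 0.19. In a fit of these 2 groups alone Nfatc4 and Nfatc3 passed, at adjusted p-values of 0.0421 and 0.0297. In LV AOB-F Nfatc2 had -0.40 ± 0.18 (adjusted p = 0.124), with values of 346 over 427 to 513 against 346 over 614 to 774 in LV Sham-F, so that all AOB-F libraries lay within the sham range. In LV AOB-H 0 members were called, beside 0.0167% of genes (2 genes), and Ppp3ca had the lowest adjusted p of the members (0.106; log2 fold change 0.30 ± 0.09).

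**Figure D3:**
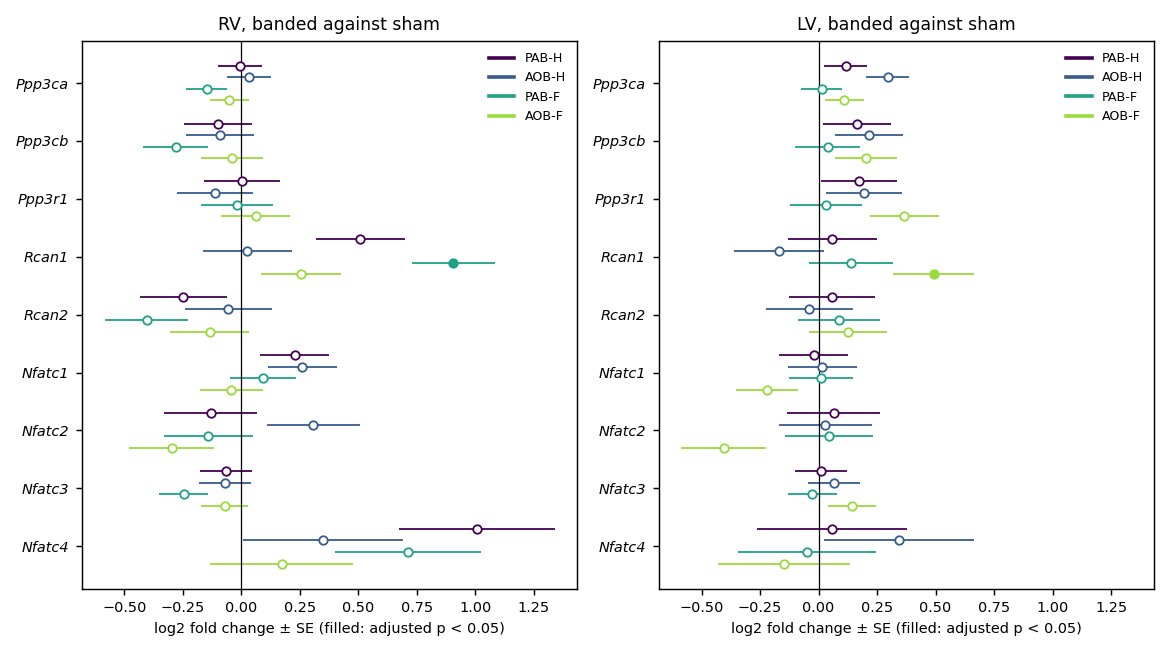
Log2 fold change ± SE of each gene in each banded group against the sham group of its stage, in the RV (left) and the LV (right). Filled points have an adjusted p under 0.05. The filled points are those of Rcan1, for RV PAB-F (0.91) and LV AOB-F (0.49), and Nfatc4 in RV PAB-H (1.01) is the farthest open point.

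The ventricles differed in most members at the failure stage, as they did in most genes. In Sham-F 8 of 9 members were called (5 higher and 3 lower in the RV), beside 74.3% of all genes tested. Ppp3cb ranged from 1629 to 1909 in the RV and from 705 over 833 to 1065 in the LV, with no overlap, and was higher in the RV of 9 of 9 rats (log2 fold change 1.05 ± 0.13, adjusted p = 1.52e-11). Ppp3r1 (1.05 ± 0.14), Rcan2 (1.11 ± 0.16), Nfatc3 (0.62 ± 0.09) and Ppp3ca (0.50 ± 0.08) were also higher in the RV of 9 of 9 rats, with no overlap between the groups and adjusted p-values of at most 6.27e-08. Nfatc4 went the other way by the widest margin. Its normalized count was 29.9 over 55.1 to 105 in the RV and 206 over 339 to 382 in the LV, a log2 fold change of -2.24 ± 0.28 (0.211-fold, 0.144 to 0.311, adjusted p = 9.58e-11). Nfatc1 was lower in the RV as well, with 252 over 302 to 370 against 498 over 615 to 664 (-0.95 ± 0.13, adjusted p = 2.93e-10). Rcan1 was lower in the RV of 9 of 9 rats, with a log2 fold change of -0.43 ± 0.16 (adjusted p = 0.0134), with groups that overlapped. Nfatc2 differed by 0.21 ± 0.17 (adjusted p = 0.244), and by 0.25 with the animal as a block, where it passed (adjusted p = 0.0346).

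In the banded rats of the failure stage the members other than Rcan1 and Nfatc2 were called in the same direction as in Sham-F. In AOB-F 8 of 9 members were called, beside 67.1% of genes, and Rcan1 was lower in the RV of 7 of 7 rats (-0.67 ± 0.18, adjusted p = 0.00106). With the animal as a block Nfatc2 passed here too (0.31, adjusted p = 0.0236). In PAB-F 7 of 9 were called, beside 61.1% of genes, and Rcan1 was higher in the RV of 5 of 6 rats with 0.34 ± 0.20 (adjusted p = 0.135). Over the 3 conditions the RV-to-LV difference ran from -2.24 to -1.48 for Nfatc4, from -0.95 to -0.78 for Nfatc1, and from 0.61 to 1.11 for Rcan2. Without the libraries that stand apart the counts were 8, 7 and 8 of 9 in Sham-F, PAB-F and AOB-F, beside 9070, 7888 and 8480 genes called. Sham-F itself lost no library. On the first component LV PAB-F replicate 5 and LV AOB-F replicate 5 lay toward the RV libraries, and RV PAB-F replicate 1 toward the LV libraries. Leaving them out widens the gap between the ventricles by construction, so this refit is no support for the differences in PAB-F and AOB-F.

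At the hypertrophy stage the ventricles differed less, and the result in sham rats rested on few libraries. In Sham-H 5 of 9 members were called, beside 21% of all genes tested. Rcan1 was lower in the RV of 7 of 7 rats, at 4792 to 7488 against 7578 to 10552 in the LV, without overlap (-0.62 ± 0.18, adjusted p = 0.0130). Nfatc4 (-1.10 ± 0.32) and Nfatc1 (-0.43 ± 0.14) were lower, and Ppp3cb (0.38 ± 0.14) and Ppp3ca (0.32 ± 0.09) higher in the RV, with adjusted p-values of 0.00934 to 0.0425. Without LV Sham-H replicate 4 there were 0 calls among the members, without LV Sham-H replicate 5 there were 2, and without RV Sham-H replicate 5 or 6 there were 3. Calls over all genes fell as well, from 2510 to 675, 1221, 1953 and 1936 in that order, so that the loss was not particular to the members. Without all libraries that stand apart there were also 0 calls among the members, beside 684 genes called. The difference was then -0.60 for Rcan1 (adjusted p = 0.0531) and -0.52 for Nfatc4 (adjusted p = 0.190). In PAB-H 0 members were called, beside 0.125% of genes, with 1 at an unadjusted p under 0.05, and in AOB-H Nfatc4 was called (-1.09 ± 0.35, adjusted p = 0.0340), beside 7.98% of genes. This value was -0.50 without LV AOB-H replicate 6 (adjusted p = 0.602), and the call was also lost without any 1 of RV AOB-H replicates 1 to 5. With the animal as a block Nfatc2 passed in AOB-H as well (0.55, adjusted p = 0.00297), higher in the RV of 6 of 6 rats.

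**Figure D4:**
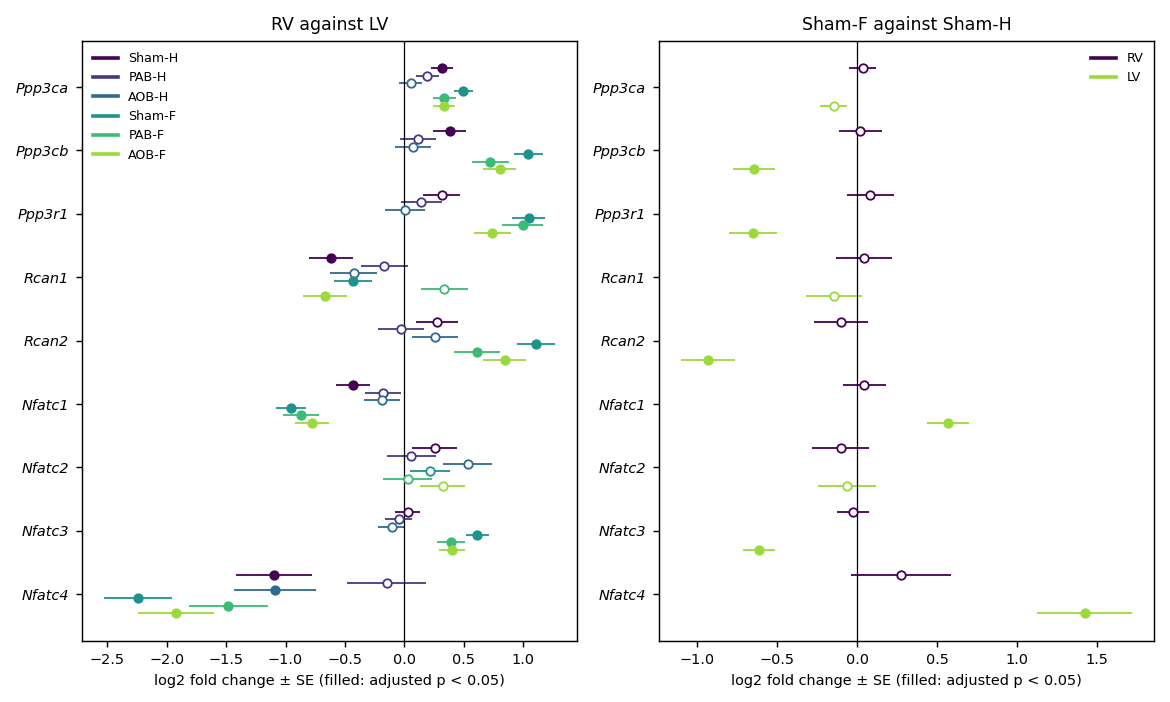
Left, log2 fold change ± SE of RV against LV within each of the 6 conditions. Right, Sham-F against Sham-H within each ventricle. Filled points have an adjusted p under 0.05. In the failure-stage conditions Ppp3ca, Ppp3cb, Ppp3r1, Rcan2 and Nfatc3 lie right of 0 and Nfatc1 and Nfatc4 left of it, and between the sham stages the LV moves (6 filled points) where the RV has 0.

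Between the sham groups of the 2 stages, sampled at 11 and 31 weeks of age, the members changed in the LV. In LV Sham-F against LV Sham-H 6 of 9 were called, beside 57.4% of all genes tested. Ppp3r1 (-0.65 ± 0.15), Ppp3cb (-0.64 ± 0.13), Rcan2 (-0.93 ± 0.17) and Nfatc3 (-0.61 ± 0.10) were lower at the later stage, with adjusted p-values of at most 0.000167. Rcan2 ranged from 3912 over 5196 to 7257 in LV Sham-F and from 5817 over 10285 to 13103 in LV Sham-H, with 7 of 9 older libraries below the younger ones. Nfatc4 rose from 118 ± 66.5 (n = 7) to 319 ± 57.2 (n = 9), by 1.42 ± 0.29 (adjusted p = 4.83e-05), and Nfatc1 rose from 394 ± 61.9 to 584 ± 63.1, by 0.57 ± 0.13 with no overlap. Rcan1 (-0.14 ± 0.17) and Nfatc2 (-0.06 ± 0.18) did not pass. Ppp3ca (-0.14 ± 0.08) did not pass either, but passed without the libraries that stand apart (-0.32, adjusted p = 2.60e-05). There 7 members were called, beside 7986 genes, and Nfatc4 had 1.97. LV Sham-H replicates 4 and 5 were picked for lying nearer to the failure stage on the first component. Leaving them out widens the gap between the stages by construction, so this refit is no support for the change.

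In the RV 0 members were called between the same stages (0 at an unadjusted p under 0.05), beside 0.0502% of genes (6 genes), and their log2 fold changes lay between -0.10 and 0.27. The change from Sham-H to Sham-F in the RV minus that in the LV passed for 6 members, beside 41.6% of all genes. It was 0.66 ± 0.19 for Ppp3cb, 0.73 ± 0.21 for Ppp3r1, 0.83 ± 0.24 for Rcan2, 0.59 ± 0.14 for Nfatc3, -0.52 ± 0.19 for Nfatc1 and -1.15 ± 0.42 for Nfatc4. Without the libraries that stand apart 7 passed, with Ppp3ca at 0.35 (adjusted p = 0.000788) beside these, and 6804 of all genes. The choice of the LV Sham-H libraries left out widens this difference by construction too. The RV and LV differences, the change between the stages and this interaction share sham libraries. The share of Ppp3ca in the summed FPKM of Ppp3ca and Ppp3cb was 47.1% ± 2.96 (n = 9) in LV Sham-F, 39.1% ± 4.49 (n = 7) in LV Sham-H, 37.7% ± 1.30 (n = 9) in RV Sham-F and 37.5% ± 1.56 (n = 7) in RV Sham-H. The difference of LV Sham-F from LV Sham-H passed (exact permutation test, two-sided, adjusted p = 0.0189 over 12 tests) and so did that from RV Sham-F, where all 9 RV values lay below all LV values (exact sign flips within animals, adjusted p = 0.0234). The other 10 tests of this share, among them all 8 of banding, did not pass.

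Markers of other cell types moved with the ventricle and the stage. The endothelial genes took a median of 0.0866% of counts in RV Sham-F (0.0654% to 0.111%) and of 0.312% in LV Sham-F (0.198% to 0.361%), against 0.164% in LV Sham-H. The fibroblast genes took a median of 0.0336% in RV Sham-F and 0.0998% in LV Sham-F, against 0.0621% in LV Sham-H, and the macrophage genes 0.00291%, 0.00652% and 0.00344%. Across the 82 libraries, which share groups and depth, the log2 level of Nfatc4 followed the endothelial list with a Pearson r of 0.94 and the fibroblast list with 0.87, and Nfatc1 with 0.85 and 0.69. Rcan1 had 0.34 and 0.21, and the other 6 members were negative, from -0.85 for Ppp3cb to -0.48 for Nfatc2 with the endothelial list. The members' correlation with the first principal component was -0.95 for Nfatc4, 0.95 for Ppp3cb and -0.87 for Nfatc1 but -0.32 for Rcan1 and 0.41 for Nfatc2, beside a median absolute r of 0.65 over all genes. The libraries that stand apart carried these lists too: LV Sham-H replicate 4 had 0.296% endothelial and 0.124% fibroblast counts and LV AOB-H replicate 6 had 0.542% and 0.206%. The part of other cell types in the differences between ventricles and stages was not tested.

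In RV PAB-F, where Rcan1 rose, the fibroblast genes took 0.0403% over 0.0690% to 0.238% and the endothelial genes 0.0897% over 0.139% to 0.205%, above the medians of RV Sham-F. The highest fibroblast share was in replicate 1, and without the libraries that stand apart, among them this one, the log2 fold change of Rcan1 was 0.91. The part of other cell types in this change was not tested.

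**Figure D5:**
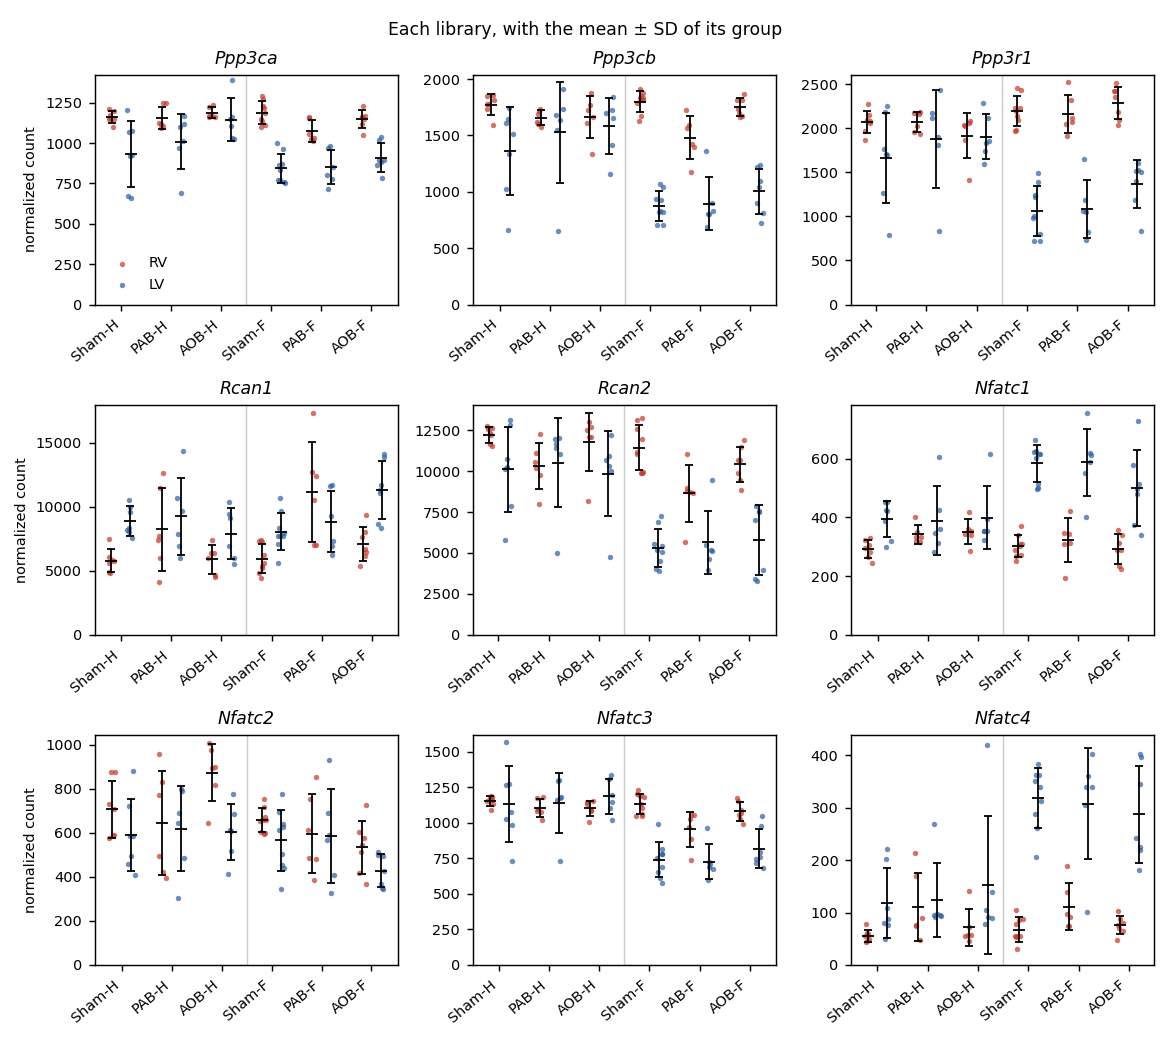
Normalized counts of each gene in every library by condition, with RV in red, LV in blue and black bars at the mean ± SD of the group (6 to 9 libraries). The RV and LV lie apart in Sham-F for Ppp3ca, Ppp3cb, Ppp3r1, Rcan2, Nfatc1, Nfatc3 and Nfatc4, and Rcan1 in the RV has a mean of 11168 in PAB-F above 5960 in Sham-F.

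Between the sexes 1 member was called. In the LV, with the 6 conditions as a term, Nfatc2 was lower in males with a log2 fold change of -0.34 ± 0.11 (0.788-fold, 0.675 to 0.921, adjusted p = 0.0481), beside 9.9% of the 11765 genes tested. With the replicate number as a block the log2 fold change was -0.37 and the call was lost (adjusted p = 0.690). Without the libraries that stand apart 3 members passed in the LV, Ppp3r1 (0.30, adjusted p = 0.0130), Rcan2 (0.33, adjusted p = 0.00978) and Nfatc2 (-0.44, adjusted p = 0.00520), and 1 in the RV, Nfatc4 (0.45, adjusted p = 0.0252). More genes passed in these refits as well: 2559 in place of 1165 in the LV and 1461 in place of 966 in the RV. In the RV 0 members passed, beside 8.38% of the 11529 genes tested. Nfatc4 had 0.42 ± 0.16 in the RV (adjusted p = 0.0919) and Nfatc2 -0.10 ± 0.10, and whether the sexes differ more in 1 ventricle was not tested. Rcan1 differed by 0.00 ± 0.11 in the LV and -0.03 ± 0.11 in the RV (adjusted p = 0.998 and 0.883).

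The other genes of the pathway were read from 7 lists of 50 genes, of which 47 were in the table and 46 were tested. Under PAB-F in the RV 6 of 46 passed (4 higher, 2 lower), beside 11.1% of all genes tested. The 4 that rose were the whole list of hypertrophy genes reported to be under calcineurin-NFAT control: Nppa and Nppb, which encode natriuretic peptides, rose by 6.17 ± 0.60 (adjusted p = 3.70e-12) and 2.45 ± 0.23 (adjusted p = 6.26e-13), and Acta1, skeletal alpha-actin, by 2.52 ± 0.36, and Myh7, the slow myosin heavy chain, by 1.05 ± 0.31. The normalized count of Nppa was 23646 ± 38657 in RV PAB-F (n = 6) and 328 ± 175 in RV Sham-F (n = 9), so that its libraries differed widely. Mef2a, a nuclear partner of NFAT, fell by 0.74 on the log2 scale (adjusted p = 0.000538), and the catalytic subunit gene Ppp3cc by 0.32 (adjusted p = 0.0120). Myh7, Mef2a and Ppp3cc were named after their values were seen. Of the 12 kinases that rephosphorylate or oppose NFAT, the 12 calcineurin inhibitors, anchors and partners and the 9 calcium entry genes, 0 passed in this comparison. These hypertrophy genes are well known load markers and respond to many signals besides calcineurin. The lists were chosen with earlier results of these data known, and the paper itself names Nppa, Nppb and Acta1 among its PAB-regulated genes. The rise of the whole list is therefore a description and not a test. The count of 6 of 46 lies near the share of all genes.

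In RV PAB-H 4 of 46 passed, beside 4.5% of all genes: Nppa (3.28 ± 0.60, adjusted p = 0.000846), Acta1 (2.01 ± 0.39) and Nppb (1.21 ± 0.24) were higher and Cacna1h, a T-type calcium channel, was lower (-0.80 ± 0.23, adjusted p = 0.0345; named after its value was seen). In LV AOB-F 5 of 46 passed, beside 12.9% of all genes, among them Nppa, higher (1.95 ± 0.51, adjusted p = 0.00661), and the kinase gene Dyrk1b, lower (-0.46 ± 0.12, adjusted p = 0.0102). In RV AOB-F 1 passed, beside 0.0669% of all genes, Nppa (2.82 ± 0.53, adjusted p = 0.00246), in the ventricle that was not banded directly. In LV PAB-H, RV AOB-H, LV AOB-H and LV PAB-F 0 of 46 passed. The response to PAB-F in the RV minus that in the LV passed for Nppa (5.30 ± 0.80, adjusted p = 5.02e-05), Nppb (1.997 ± 0.324) and Acta1 (2.07 ± 0.52).

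Between RV and LV in Sham-F 36 of 46 genes of the lists passed (15 higher and 21 lower in the RV), beside 74.3% of all genes tested. By size, Nppa (-4.05 ± 0.54) and Nppb (-2.28 ± 0.21) were lower and Acta1 (-1.68 ± 0.33) was lower in the RV. In PAB-F 31 passed (14 higher, 17 lower), beside 61.1% of all genes, led by Rcan3, the remaining RCAN gene (-1.27 ± 0.21), Chp2 (-1.02 ± 0.32) and Mapk8 (0.99 ± 0.15), and in AOB-F 36 passed (15 higher, 21 lower), beside 67.1%. These shares lie near those of all genes, so that the counts say nothing particular of the lists. In Sham-H 11 passed (5 higher, 6 lower), beside 21% of all genes, with Nppa (-2.55 ± 0.57), Nppb (-2.05 ± 0.24) and Acta1 (-1.31 ± 0.37) the largest, in AOB-H 4 passed, all 4 lower, beside 7.98%, and in PAB-H 0 of 46. Between the LV sham stages 27 passed (13 higher, 14 lower), beside 57.4% of all genes, with Nppa (1.52 ± 0.52), Myoz1 (1.16 ± 0.46) and Mapk9 (-0.89 ± 0.15) the largest, and the difference of this change between the ventricles passed for 22, beside 41.6%. Between the sexes 5 passed in each ventricle, beside 8.38% of genes in the RV and 9.9% in the LV, and in the LV Nppa (1.26 ± 0.22), Acta1 (1.18 ± 0.12) and Myh7 (0.90 ± 0.12) were higher in males.

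The genes most like each member over the 82 libraries, by Pearson r of log2 CPM, differed in how closely they followed. Ppp3cb was most like Rab10 (r = 0.98) and Usp14 (0.98), Rcan2 most like Sspn (0.96) and Tmod1 (0.95), Ppp3r1 most like Micu2 (0.96) and St13 (0.96), and Nfatc4 most like Pear1 (0.96) and Nab2 (0.96). Ppp3ca was most like Dhx9 (0.92) and Tdp2 (0.92), Nfatc3 most like Smad4 (0.92) and Qser1 (0.92), and Nfatc1 most like Ltbp4 (0.91) and Notch1 (0.90). The closest genes to Nfatc2 were Cecr2 (0.79) and Camk2a (0.77), and those to Rcan1 were Gdf15 (0.76) and Sae1 (0.75), so that these members had the least close partners. Over the 12 group means close genes were Mical2 (0.96) and Ptdss1 (0.95) for Rcan1, Chad (0.96) and Wipf3 (0.95) for Nfatc2, Cbx5 (0.998) and Eif2a (0.997) for Ppp3cb, Eif1ax (0.997) and Actl6a (0.995) for Ppp3r1, Prpf38b (0.99) for Ppp3ca, Mmachc (0.99) for Rcan2, Fam98c and Ptch1 (0.99 each) for Nfatc1, Gpbp1l1 and Klhdc10 (0.98 each) for Nfatc3, and RT1-CE15 and Pear1 (0.997 each) for Nfatc4. These partners are the highest of all genes tested, and group means give only 12 points. Genes at large also followed the first principal component (median absolute r of 0.65 over the libraries), so high values need not be particular to these pairs. Among the members themselves Ppp3cb and Ppp3r1 had an r of 0.93 over the libraries, Ppp3cb and Rcan2 0.90, Ppp3cb and Nfatc4 -0.88, and Rcan1 and Rcan2 -0.27.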

How the data were processed

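RNA was measured in 82 cardiomyocyte libraries, the RV and LV of 41 rats, grouped by the labels. Per the paper's methods and the submitters' processing notes, the authors trimmed reads with Trim Galore, aligned them with STAR to Rnor6.0, counted them with featureCounts and normalized with DESeq2 1.28.1. They deposited raw counts, normalized counts (a signal equal to counts over size factors of 0.639 to 1.57) and FPKM for 17337 genes, 1773 of them without a count. Tests used the deposited counts, and levels between genes the deposited FPKM. The group normalized counts were computed from the raw counts.

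Counts were fitted in edgeR 4.0.16 (R 4.3.3) with TMM factors, filterByExpr and quasi-likelihood tests in 1 model of 12 groups. The call was a Benjamini-Hochberg adjusted p under 0.05 over 11954 genes, and sex was tested per ventricle with the 6 conditions as terms. On simulated data 157 of 200 genes changed by a log2 fold of 1 were recovered for RV PAB-F, with 10 others called. For LV AOB-F 159 of 200 were recovered, with 9 others called. For the response to PAB-F in RV minus LV only 115 of 200 were recovered, with 6 others called, so a missing call there says less. Figures were drawn with matplotlib 3.10.9 and share tests were run with scipy 1.17.1. Each replicate was a separate rat, and depth is given with the results. Alternatives were other scalings, no filter, DESeq2 1.42.0, 2 groups alone, sex as a term, blocks, the study's criteria, single libraries left out and, chosen after seeing the data, the 8 libraries that stand apart left out.

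Libraries of the same rat deviated together from their group means (median Pearson r 0.231 to 0.402 per condition, against -0.0868 to 0.0460 between other rats; the lowest single pair was -0.174), and since RV and LV came from the same animal a block by animal was run. The named genes were all 9 members, at most 3 called genes of the pathway lists per comparison by size of log2 fold change, and the 2 genes most alike. The members and lists were chosen with earlier results of these data known. A few genes that this rule names are not reported here.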

Additional observations from a re-analysis of the deposited data

Results flagged for a closer look

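Of 108 gene and group combinations, 14 had a library whose gap to its nearest neighbour was large for the range of the group. For a single combination chance gives about 1 in 20, but members of the same library are not independent of each other. All 14 lie in 4 of the libraries that stand apart. These 4 were themselves picked by such a gap on the first or second component of the same data, so this overlap is no separate evidence. In LV PAB-H replicate 2 the normalized count of Ppp3cb was 649, of Rcan2 4976, of Nfatc3 730 and of Nfatc4 269. In LV PAB-F replicate 5 that of Ppp3cb was 1358, of Rcan2 9470, of Nfatc3 967 and of Nfatc4 101. In LV AOB-H replicate 6 that of Rcan2 was 4762, of Nfatc1 615 and of Nfatc4 419. In RV AOB-H replicate 6 that of Ppp3r1 was 1414, of Rcan2 8207 and of Nfatc4 141.

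The change from Sham-H to Sham-F differed between the ventricles for 6 members by the interaction term of edgeR's quasi-likelihood test. In the same contrast 41.6% of all genes tested were called, so such a difference was common. RV minus LV it was 0.66 for Ppp3cb (adjusted p = 0.00388), 0.73 for Ppp3r1 (0.00441), 0.83 for Rcan2 (0.00447), -0.52 for Nfatc1 (0.0210), 0.59 for Nfatc3 (0.00121) and -1.15 for Nfatc4 (0.0245).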

How the results depend on the processing

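The rise of Rcan1 in RV PAB-F kept its direction and its adjusted p under 0.05 in each refit run for it (9 other settings and 15 single libraries left out) but lay under the fold of the study's criteria. Other counts of members called moved. Without the libraries that stand apart they were 1 for RV PAB-H, 2 for LV AOB-F, 0 for RV against LV in Sham-H, 3 for sex in the LV and 1 for sex in the RV. With total counts alone they were 2 for each of RV PAB-H and LV AOB-F, with upper quartile factors or no filter 0 in LV AOB-F, and with the DESeq2 Wald test 1 in RV PAB-H. Over all genes total counts alone called 802 for RV PAB-H and 1750 for LV AOB-F. Upper quartile factors called 1556 and no filter 1324 in LV AOB-F, and the DESeq2 Wald test 672 in RV PAB-H. Fits of the 2 groups alone gave 2 for RV PAB-H, 5 for RV PAB-F, 0 for LV AOB-F, 3 for RV against LV in Sham-H and 0 in AOB-H. For RV against LV these fits called 1499 genes in Sham-H and 475 in AOB-H. The study's criteria (log2 fold change past 1, p up to 0.01 and a mean over 50) gave 1 for RV PAB-H, 0 for RV PAB-F, 0 for LV AOB-F, 1 for the LV between sham stages, 0 for sex in the LV, and for RV against LV 1 in Sham-H, 4 in Sham-F, 1 in PAB-F and 1 in AOB-F. Over all genes the same criteria gave 217 for RV PAB-H, 227 for RV PAB-F and 145 for LV AOB-F. They gave 962 for the LV between sham stages and 31 for sex in the LV. For RV against LV they gave 338 in Sham-H, 3306 in Sham-F, 2030 in PAB-F and 2613 in AOB-F. At an unadjusted p 1 member passed for the responses in RV minus LV to PAB-H, AOB-H and PAB-F, and 1 for the LV response to AOB at F minus H. Over all genes 1104, 577, 1538 and 1148 passed there at an unadjusted p under 0.05, in the same order. Leaving out single libraries gave 0 to 1 in RV PAB-H, 0 to 1 in LV AOB-H, 0 to 2 in LV AOB-F, and for RV against LV 0 to 5 in Sham-H and 0 to 1 in AOB-H. Calls over all genes moved in these refits too. Without LV AOB-F replicate 7, for example, they were 751 in place of 1541 in LV AOB-F. Without LV AOB-H replicate 6 they were 232 in place of 954 for RV against LV in AOB-H. The log2 fold change of Nfatc4 ran from -0.24 to 0.61 in LV AOB-H and from -0.75 to 0.093 for the LV response to AOB at F minus H, and its sign turned without LV AOB-H replicate 6. The cause of these moves was not tested.

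With the animal as a replicate block 2 members were called for RV against LV in AOB-H and 1 for the response to PAB-F in RV minus LV. Over all genes that block gave 1643 in place of 954 calls and 349 in place of 42. With the replicate number as a replicate block 0 were called for sex in the LV. Over all genes the calls were 1529 in place of 538 for RV PAB-H and 2806 in place of 1541 for LV AOB-F without the libraries that stand apart, and 1642 for RV PAB-H, 2726 in place of 1325 for RV PAB-F and 15 for LV AOB-F in fits of 2 groups alone. Without the libraries that stand apart 2559 in place of 1165 genes were called for sex in the LV. In the RV it was 1461 in place of 966, and for RV against LV in Sham-H 684 in place of 2510. Nfatc4 had the fewest reads, 26 to 516 per library, and an SE of 0.31 in RV PAB-F against 0.09 for Ppp3ca.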
